A study of Mus musculus with 10 samples.

Results

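Rag1, Rag2, Dntt, Vpreb1, Igll1, Vpreb3 and Arpp21 are genes of V(D)J recombination and of the precursor B cell, and their RNA was quantified here in germinal center (GC) B cells of mice that lack ZBTB38. Of 22380 genes quantified, these 7 were chosen by their role in early B cells together with the measured counts and TPM of Rag2 and Arpp21, low values that had differed between genotypes. Each was found by its symbol, all 7 were present, and all 7 passed the filter on low counts in each comparison. Because the genotype difference was part of the choice, the differences of these genes between genotypes are given below as descriptions, without a test.

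RNA-seq had been performed on NP-binding GC B cells (sorted as GL7+IgD-) 2 weeks after intraperitoneal immunization with NP-OVA, ovalbumin carrying the hapten NP, in Alhydrogel adjuvant. The 10 libraries came from 1 mouse each. ZBTB38 WT mice (n = 2) were Zbtb38fl/fl without Cre, ZBTB38 HET mice (n = 2) were Zbtb38fl/+ x Vav-Cre, and ZBTB38 KO mice (n = 6) were Zbtb38fl/fl x Vav-Cre. The floxed allele was made in C57Bl6/J zygotes, and its line was kept by backcrossing to C57Bl6/N. The ages of the mice are not given in the sources used here. All mice carried at least 1 floxed allele derived from a single founder, in which loxP sites flank the terminal exon that holds the whole coding sequence. Vav-Cre is active primarily in hematopoietic cells, so the deletion was not restricted to B cells, and WT differed from KO in Cre as well as in Zbtb38. WT and HET libraries together are called controls (n = 4). KO libraries are called KO1 to KO6 by replicate number, which has no order.

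ZBTB38 is a BTB zinc finger protein that binds methylated DNA. The RAG1 and RAG2 proteins form the recombinase that cuts at the recombination signals flanking V, D and J gene segments, and end joining then seals the breaks, with terminal deoxynucleotidyl transferase (TdT, encoded by Dntt) adding bases at the junctions. In pre-B cells the heavy chain pairs with a surrogate light chain, made of the VPREB1 and lambda-5 (Igll1) proteins, to form the pre-B cell receptor. These genes are normally active in bone marrow precursors and largely shut in mature B cells, whereas Vpreb3 continues to be transcribed in germinal centers.

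The libraries held 26612431 to 41059082 estimated counts, and values are given as CPM, the count scaled to library size by TMM. The targeted gene, Zbtb38, was at 162 and 152 CPM in WT, 117 and 106 CPM in HET and 18.6 to 50.3 CPM in KO, so every library matched its label; these counts are summed over the whole gene, with exons outside the deletion. GC B cell markers were present in every library: Bcl6 was at 169 to 294 CPM and S1pr2 at 296 to 661 CPM. KO6 stood apart from the other libraries, with a median correlation of log values with them of 0.954 against 0.971 to 0.983 for the rest, and results that rest on it are given with and without it.

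The 7 genes spanned more than 3 orders of magnitude in level per transcript length, given as TPM, the share of transcripts scaled by length, over the 10 libraries. Vpreb3 led with 707 ± 92.4 TPM (SD, n = 10), at the 98.8th percentile of the 17488 genes with a count. Igll1 followed at 19.6 ± 14.4 TPM and Vpreb1 at 10.3 ± 7.45 TPM. Rag2 was at 1.22 ± 0.730 TPM, Dntt at 0.415 ± 0.402 TPM, Arpp21 at 0.360 ± 0.496 TPM and Rag1 at 0.290 ± 0.459 TPM. The first steps of this order held library by library: Vpreb3 exceeded Igll1 in 10 of 10 libraries, Igll1 exceeded Vpreb1 in 10 of 10, and Vpreb1 exceeded Rag2 in 9 of 10, the exception being KO6. Below Rag2 the order changed between libraries. Dntt exceeded Arpp21 in only 6 of 10 libraries, and Arpp21 exceeded Rag1 in 6 of 10. The latter 6 were the KO libraries, and in the 4 controls, where Arpp21 was at 0, Rag1 was the higher. The place of Arpp21 by its mean over 10 libraries therefore mixes genotypes, and Arpp21 was chosen for its difference between them.

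**Figure D1:**
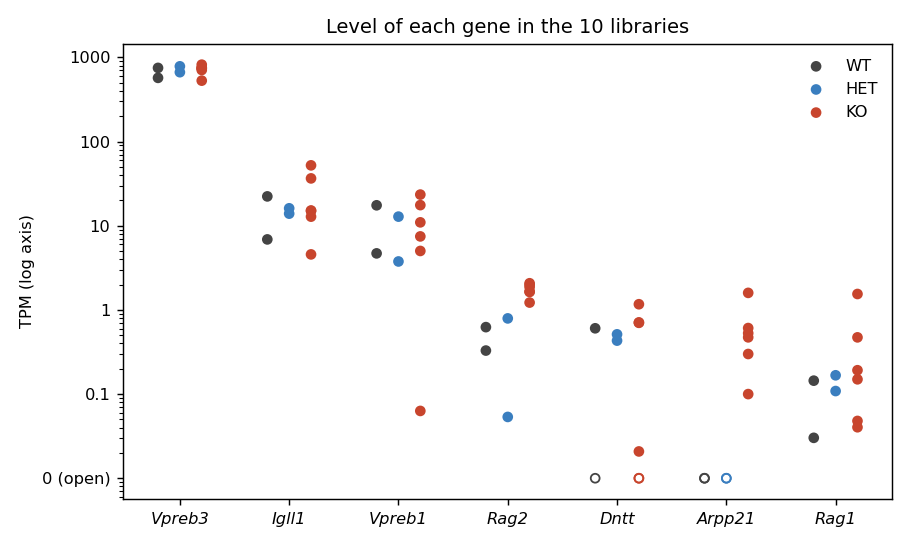
TPM on a log axis for the 7 genes in the 10 libraries, WT, HET and KO in separate columns, with open circles at the bottom for a value of 0. Vpreb3 sits at 530 to 820 TPM in all libraries, whereas Dntt, Arpp21 and Rag1 stay below 2 TPM and Arpp21 is at 0 in the 4 controls.

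The recombinase genes lie next to each other on chromosome 2 in opposite directions (GRCm38, Gencode annotation). Rag2 is at chr2:101624718-101632529 on the plus strand and Rag1 at chr2:101638282-101649501 on the minus strand, 5753 bases apart. The sequences upstream of the RefSeq starts (GRCm38.p6, 250 bases, read 5′ to 3′ on the gene's strand) are shown for the 2 recombinase genes and for Arpp21 because Rag2 and Arpp21 are the members whose KO and control libraries did not overlap. Capitals mark CG, the dinucleotide that can carry DNA methylation. The windows are chr2:101624462-101624711 (plus strand) for Rag2, chr2:101649533-101649782 (minus strand) for Rag1 and chr9:112187927-112188176 (minus strand) for Arpp21. RefSeq lists 9 such windows for Arpp21, and the one shown belongs to the start of the transcript with the most counts in any 1 library, ENSMUST00000178410.1, which had them in KO6 alone.
Rag2: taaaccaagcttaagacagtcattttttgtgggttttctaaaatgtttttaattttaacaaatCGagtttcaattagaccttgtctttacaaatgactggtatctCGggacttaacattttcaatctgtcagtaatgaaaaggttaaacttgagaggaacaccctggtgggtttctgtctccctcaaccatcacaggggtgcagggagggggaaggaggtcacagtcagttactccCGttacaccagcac
Rag1: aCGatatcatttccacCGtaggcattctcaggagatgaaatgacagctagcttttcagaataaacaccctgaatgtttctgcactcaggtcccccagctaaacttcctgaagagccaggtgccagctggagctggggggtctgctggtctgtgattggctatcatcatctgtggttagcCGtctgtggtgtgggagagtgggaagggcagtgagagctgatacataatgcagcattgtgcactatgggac
Arpp21: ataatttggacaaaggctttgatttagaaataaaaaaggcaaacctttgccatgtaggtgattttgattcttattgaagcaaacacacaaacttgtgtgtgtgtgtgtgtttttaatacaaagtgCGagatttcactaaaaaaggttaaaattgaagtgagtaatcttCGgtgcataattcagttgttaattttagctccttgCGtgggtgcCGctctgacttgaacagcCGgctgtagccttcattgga
Rag2 held 3 CG, Rag1 3 and the Arpp21 window shown 5, against a median of 6 over 32851 windows of the same length, of which 92.1% held at least 1 CG. The 9 Arpp21 windows held 0 to 10 CG, and the one at the start of ENSMUST00000164754.8, the leading transcript by counts in KO1, KO2 and KO5, held 10 CG. Among the other members, the upstream windows of Dntt and Vpreb1 held 2 CG each, and those of Igll1 and Vpreb3 held 1 each. The E-box core CANNTG, which reads the same on both strands and whose NN may hold a CG, occurred 1 time in Rag2, 3 times in Rag1, 1 time in the Arpp21 window shown and 1 to 5 times over all 9, 3 times each in Dntt and Igll1, 1 time in Vpreb1 and 5 times in Vpreb3. It was in 66.2% of all windows, with a median of 1. A matching stretch of letters says nothing of binding in these cells.

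Rag2 RNA was low in every library, and was higher in all 6 KO than in all 4 controls. The 2 WT libraries held 32 and 40 counts, the 2 HET libraries 4 and 39, and the KO libraries 67 at the lowest, 91.5 at the median and 111 at the highest. In CPM the WT libraries were at 0.768 and 1.38, the HET libraries at 0.127 and 1.41, and the KO libraries from 2.44 to 3.62 with a median of 3.12. The lowest KO library was therefore above the highest control, and the groups did not overlap. The KO mean was 3.04 ± 0.436 CPM (SD, n = 6) against 0.922 ± 0.607 CPM (SD, n = 4) in controls, a ratio of 3.30, with a fitted log2 fold change of 1.72 (SE 0.586). Against WT alone it was 1.50 (SE 0.554). Leaving out KO6 gave a KO mean of 3.00 CPM and a ratio of 3.26. Of all genes tested, 0.524% had every KO library above every control (70 of 13347) and 2.68% every KO library above both WT libraries (380 of 14203). Of the members 2 of 7 did, Rag2 and Arpp21, in both comparisons, but this is the pattern for which the set was chosen. In sorted bulk RNA, more cells with the transcript and more RNA per cell cannot be told apart.

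The Rag2 counts were divided between 2 transcripts that share a coding sequence of 1584 bases. ENSMUST00000044031.3 has 3424 bases and an additional short 5′ exon, and ENSMUST00000111227.1 has 1857 bases, lacking that exon and ending earlier at the 3′ side. The longer transcript overlapped between groups, at 0.0535 to 0.583 TPM in controls and 0.312 to 1.01 TPM in KO. The shorter transcript did not overlap, but Rag2 was chosen for its difference between genotypes. The share of all transcripts with this pattern was not computed. The shorter transcript was at 0 and 0.0411 TPM in WT and at 0 and 0.382 TPM in HET. In KO it was at 0.627 TPM at the lowest, 0.958 TPM at the median and 1.68 TPM at the highest. Its share of Rag2 TPM was 0% and 6.58% in WT, 0% and 48.2% in HET, and 38.4% to 84.3% in KO. Every exon base of the shorter transcript also lies in an exon of the longer one, so only the junction that skips the additional exon is its own. The division is therefore the quantifier's estimate, since reads in the shared bases fit both transcripts.

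An exon of ENSMUST00000160037.7, a transcript of the minus-strand gene B230118H07Rik, covers 208 bases of the Rag2 coding exon (chr2:101630341-101630548), and 80 bases of the first Rag1 exon are also exonic in B230118H07Rik on the same strand. The library kit did not preserve strand, so reads in these bases cannot be assigned by strand. B230118H07Rik held 17 and 17 counts in WT, 0 and 0 in HET, and 0 to 68 in KO. The KO libraries from KO1 to KO6 held 0, 11, 11, 15, 6 and 68 counts of it, beside 67, 83, 111, 85, 98 and 108 counts of Rag2. The part of the overlapping bases in the Rag2 counts was not tested. The next genes along the locus on the Rag1 side, Traf6, Prr5l and Commd9, had log2 fold changes between KO and controls of 0.29 (SE 0.190), 0.06 (SE 0.923) and 0.09 (SE 0.184), none past the threshold (edgeR adjusted p = 0.753, 0.993 and 0.928).

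Rag1 RNA was not separated by genotype. The WT libraries held 28 and 4 counts, the HET libraries 25 and 14, and the KO libraries 6 at the lowest, 28 at the median and 283 at the highest. The last value was that of KO6, at 8.50 CPM, and the next highest KO library, KO4, was at 2.10 CPM. The KO mean of 2.16 ± 3.19 CPM (SD, n = 6) was 4.09 times the control mean of 0.528 ± 0.286 CPM (SD, n = 4), and without KO6 the ratio was 1.69, with 3 of 6 KO libraries above every control, KO6 among them. Nor were Rag1 and Rag2 held in 1 proportion. The ratio of Rag1 to Rag2 TPM was 0.0484 and 0.439 in WT, 3.12 and 0.137 in HET, and 0.0195 to 0.777 in KO.

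Dntt, which encodes TdT, was at or near 0 in several libraries of both kinds. The WT libraries held 0 and 23 counts, the HET libraries 22 and 16, and the KO libraries 0 at the lowest, 15 at the median and 42 at the highest. KO1, KO3 and KO6 held 1, 0 and 0 counts, whereas KO2, KO4 and KO5 held 42, 29 and 30. Mean levels were 0.578 ± 0.653 CPM (SD, n = 6) in KO and 0.519 ± 0.357 CPM (SD, n = 4) in controls, a difference well inside the spread. The 0 in WT replicate 1 allows a level of up to 0.0720 CPM (3 counts; counting error only). Dntt is at chr19:41029275-41059525.

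The surrogate light chain genes Vpreb1 and Igll1 lie 4418 bases apart on chromosome 16 (chr16:16868403-16870843 and chr16:16860671-16863985, both minus strand), and were detected in every library. For Vpreb1 the WT libraries held 78 and 192 counts, the HET libraries 47 and 138, and the KO libraries 1 at the lowest, 125 at the median and 244 at the highest. The single count was that of KO6. Vpreb1 means were 4.33 ± 3.12 CPM in KO (SD, n = 6) and 3.75 ± 2.48 CPM in controls (SD, n = 4), and the 2 ranges overlapped. For Igll1 the WT libraries held 136 and 293 counts, the HET libraries 206 and 207, and the KO libraries 86 at the lowest, 230.5 at the median and 649 at the highest. Its mean was 10.9 ± 7.53 CPM in KO and 6.86 ± 2.83 CPM in controls, a ratio of 1.59 that rests on KO2 and KO4, at 23.4 and 16.2 CPM, the 2 KO libraries above every control. KO6 was below every control for both genes.

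Igll1 and Vpreb1 were both high in KO2 and KO4 and both low in KO6. The ratio of Igll1 to Vpreb1 TPM was 1.47 and 1.28 in WT, 3.70 and 1.26 in HET, and 1.38 to 2.99 in the 5 KO libraries other than KO6, where Vpreb1 had 1 count and no ratio was formed. These values are a description over libraries that share the assay.

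Vpreb1 has a near-identical copy, Vpreb2, 1.11 Mb away on the same chromosome (chr16:17980428-17981273), and the quantifier had to divide reads between them. The coding sequences are both 429 bases long and differ at 9 positions (97.9% identical), with identical runs of up to 196 bases. Coding bases 268 to 387 are shown because 6 of the 9 differences fall there, in capitals, so this stretch holds most of the bases that tell the copies apart.
Vpreb1: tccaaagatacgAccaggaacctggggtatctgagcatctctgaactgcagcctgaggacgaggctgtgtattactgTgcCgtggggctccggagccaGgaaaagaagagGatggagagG
Vpreb2: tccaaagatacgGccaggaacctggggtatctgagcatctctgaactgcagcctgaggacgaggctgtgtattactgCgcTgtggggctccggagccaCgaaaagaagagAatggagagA
Vpreb2 held 0 and 1 counts in WT, 5 and 4 in HET, and 0 to 14 in KO, fewer than Vpreb1 in every library. The level of either gene alone is uncertain to the extent that reads outside these positions fit both.

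Vpreb3, whose product associates with immunoglobulin chains inside the cell, was the only member above 100 CPM in any library, and it was so in all 10. The WT libraries were at 170 and 209 CPM, the HET libraries at 193 and 224 CPM, and the KO libraries at 161 CPM at the lowest, 219 CPM at the median and 311 CPM at the highest. The ranges overlapped, with 3 of 6 KO libraries above every control and 1 below every control. The fitted log2 fold change between KO and controls was 0.20 (SE 0.167). Vpreb3 is at chr10:75943057-75949657.

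Arpp21 encodes a cyclic AMP-regulated phosphoprotein and is the host gene of miR-128-2. It lies at chr9:112065091-112235938 on the minus strand, 15.3 Mb from Zbtb38 on the same chromosome. No count was assigned to it in any of the 4 controls, whereas every KO library had some. The KO libraries held 4 counts at the lowest, 23 at the median and 138 at the highest, or 0.130, 0.746 and 4.15 CPM. The KO mean of 1.26 ± 1.52 CPM (SD, n = 6) was at least 54.3-fold higher than the level that 3 counts over the 4 controls would give, and without KO6, the highest library, at least 29.3-fold higher. Of 17488 genes with a count in any library, Arpp21 was the only gene with 0 counts in all controls and a count in every KO library (0.00572%), and this is the value for which it was chosen. The low counts of KO3 and KO5, 4 and 6, are close to the floor of 3 counts.

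The transcript behind the Arpp21 counts differed from library to library, and 15 transcripts were quantified. In KO6, 94.9% of the counts came from ENSMUST00000178410.1, whose coding sequence is 267 bases and whose start is the one shown above. In KO4, 13 of 35 counts came from ENSMUST00000172380.9, which has the same coding length, and 17.0 from ENSMUST00000162065.7, with a coding sequence of 2430 bases. In KO1, 37.1 of 43 counts came from ENSMUST00000164754.8, with 2424 coding bases, which also led by counts in KO2 and KO5. By share of TPM, ENSMUST00000162796.7 led in KO2 (66.7%) and ENSMUST00000159246.7 in KO5 (53.8%), on 11 and 6 counts of the gene. The short coding form was thus seen in KO4 and KO6 and had no count in the other 4 KO libraries.

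**Figure D2:**
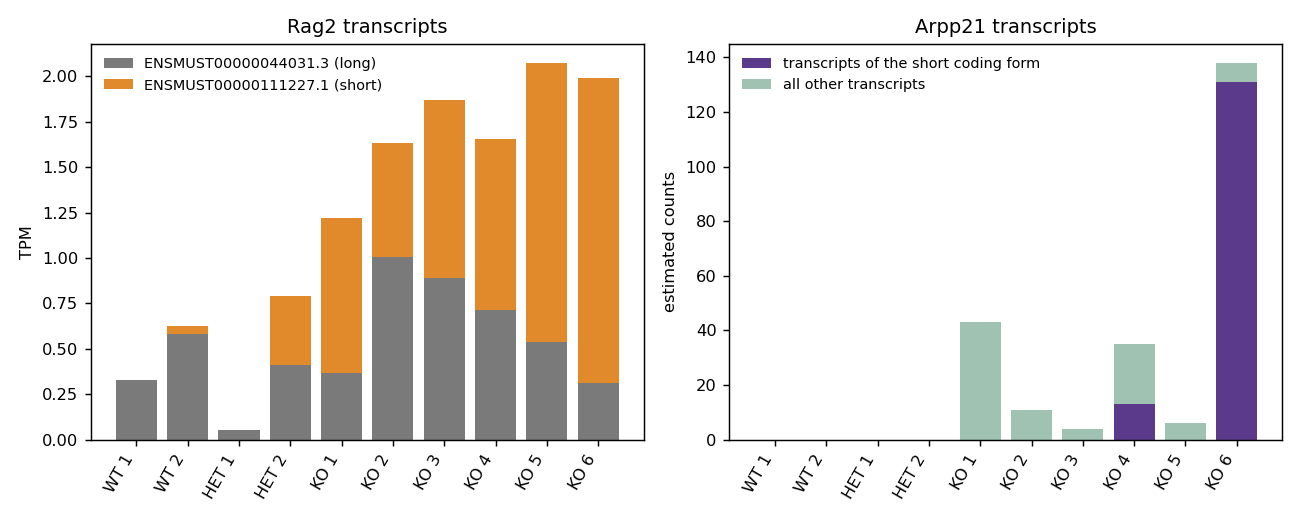
Left, TPM of the 2 Rag2 transcripts, stacked, in the 10 libraries. Right, estimated counts of Arpp21 in the same libraries, split into the 2 transcripts with 267 coding bases and all others. The shorter Rag2 transcript reaches 0.627 to 1.68 TPM in KO, and the short Arpp21 coding form appears in KO4 and KO6.

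Only for Rag2 and Arpp21 did the KO and control libraries not overlap. The mean of KO was higher than that of controls for 7 of 7 members, where the fitted change was above 0 for 52.8% of all genes, but the choice fixed this direction for Rag2 and Arpp21, and without KO2 the fitted log2 fold change was -0.40 for Dntt and -0.12 for Vpreb1. KO6 was the highest KO library for Rag1 and Arpp21, the lowest for Vpreb1 and Igll1, and tied with KO3 at 0 for Dntt. Compared with all 14354 genes that passed the filter, the spread among KO libraries was small for Rag2, with an SD of log2(CPM + 1) of 0.158 at the 9.92nd percentile. It was 0.339 for Vpreb3 (52.9th percentile), 0.603 for Dntt (84.4th), 0.832 for Arpp21 (93.5th), 0.957 for Igll1 (96.2nd), 1.12 for Rag1 (98.2nd) and 1.16 for Vpreb1 (98.6th). Without KO6 the SD was 0.579 for Rag1, 0.634 for Vpreb1, 0.519 for Arpp21 and 0.700 for Igll1, and 0.171 for Rag2. Genes at a low level take small values of this SD, so Rag2 at 2.44 to 3.62 CPM is compared with genes of many levels.

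**Figure D3:**
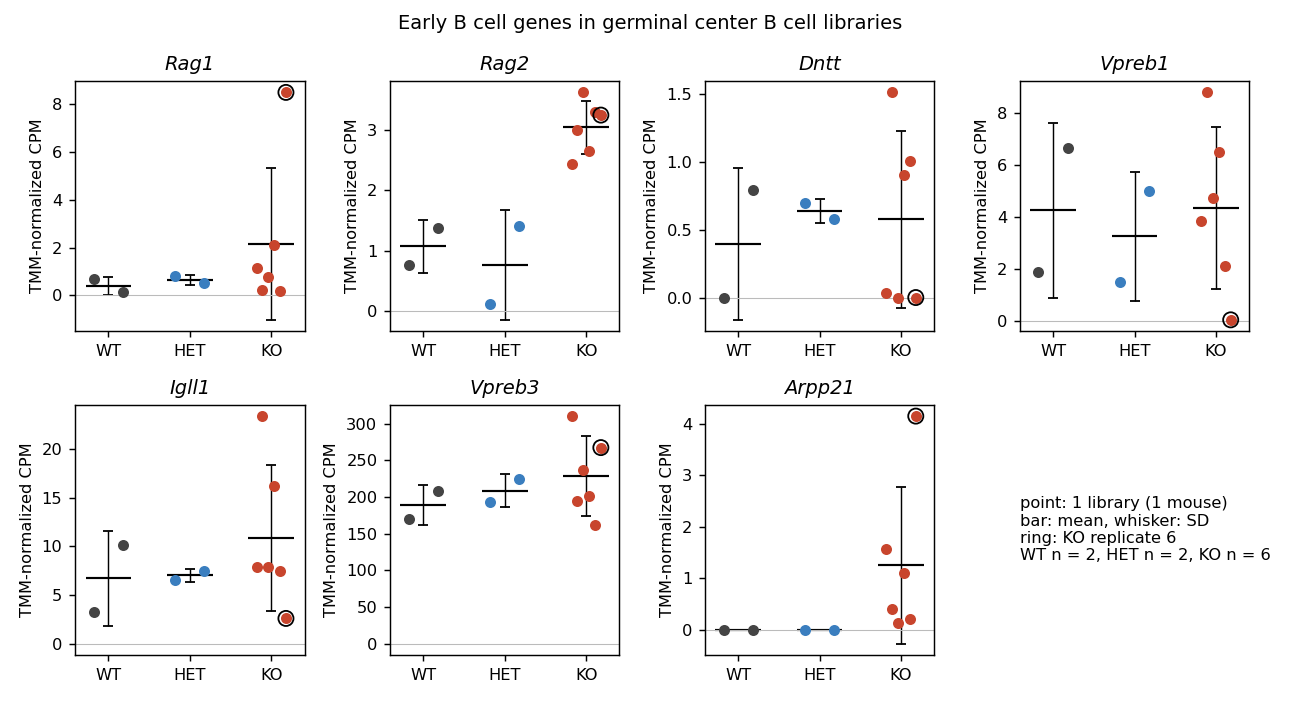
TMM-normalized CPM of the 7 genes by genotype; each point is 1 library, the bar is the mean and the whisker the SD, and the ring marks KO6. All 6 KO points lie above all 4 control points for Rag2 and Arpp21, whereas the groups overlap for the other 5 genes.

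Markers of other cells moved between libraries, and their part in the member values was not tested. The 8 markers of pro-B and pre-B cells, 3 of which are members, summed to 19.7 and 35.5 CPM in WT, 21.8 and 22.0 CPM in HET and 18.9 to 57.5 CPM in KO. Kit, a receptor of progenitor cells, was at 0 in both HET libraries and in KO1, KO2 and KO3, at 0.696 and 1.80 CPM in WT, and at 8.86 CPM in KO6. Il7r, the interleukin-7 receptor of precursor and T cells, ranged from 4.41 to 8.04 CPM among controls and from 2.19 to 16.7 CPM among KO libraries. The 5 thymocyte markers summed to 8.96 to 34.4 CPM in controls and 14.5 to 85.1 CPM in KO. The highest sum was that of KO6, with Cd1d1 at 80.2 CPM and Ptcra at 2.31 CPM. Cd1d1, which led this list, thus made up most of the sum in KO6, and a sum carried by 1 gene does not measure thymocytes. The 10 T cell markers summed to 295 and 301 CPM in WT, 196 and 200 CPM in HET and 197 to 283 CPM in KO, with Lck the highest, so this sum was not higher in KO than in controls. The 8 GC B cell markers, led by S1pr2, summed to 2365 to 3350 CPM in controls and 1831 to 3852 CPM in KO, and the 5 naive B cell markers, led by Cr2, to 743 to 1019 CPM in controls and 623 to 1329 CPM in KO. KO6, the highest library for Rag1 and Arpp21, had the lowest GC sum and the highest naive sum of the 10 libraries. The 5 plasma cell markers, led by Jchain, summed to 1179 to 1582 CPM in controls and 1163 to 1744 CPM in KO, with KO1, KO3, KO5 and KO6 above every control. Myeloid markers, led by Lyz2, summed to 77.0 to 548 CPM in controls and 62.4 to 730 CPM in KO, with the highest value in KO4. The 6 erythroid markers, led by Hbb-bt, summed to 35.5 to 57.1 CPM in controls and 56.1 to 96.5 CPM in KO, so that only the lowest KO library and the highest control overlapped.

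The other genes of the pathway were read from a list of 54: end joining and cleavage cofactors, the pre-B cell receptor and its signaling, early B cell transcription factors, and surface markers of progenitors and precursors. No gene of the list passed an adjusted p of 0.1 (edgeR quasi-likelihood test, Benjamini-Hochberg) in any of the 4 comparisons, against a background of 1 gene called in each, which is 0.00704% in WT against KO, 0.00749% in WT plus HET against KO, and 0.00697% in both HET against KO and WT against HET. The deleted gene itself, Zbtb38, had an edgeR adjusted p of 0.0734 in WT against KO and 0.0104 in WT plus HET against KO. In HET against KO it was not called (edgeR adjusted p = 0.128), so the absence of a call does not show the absence of a change. At an unadjusted p under 0.05 the list gave 0 of 53 genes in WT against KO, where 2.19% of all genes passed, and 5 of 52 in WT plus HET against KO, where 6.3% passed. It gave 8 of 53 in HET against KO, where 10.2% passed, and 2 of 53 in WT against HET, where 6.42% passed. In the same order, DESeq2 called 0, 0, 3 and 0 list genes, where it called 5 (0.0354%), 18 (0.143%), 458 (3.54%) and 125 (0.928%) of all genes. The 3 list genes are 5.66% of those tested. Limma on log2(TPM + 1) called 0 list genes in each, and 0, 0, 1 and 1 of all genes (0%, 0%, 0.00697% and 0.00697%). The comparisons share libraries.

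The 5 genes with an unadjusted p under 0.05 in WT plus HET against KO all had lower KO means, and none passed after adjustment (edgeR adjusted p = 0.744 for each). Leaving out HET replicate 1 or HET replicate 2 gave 2 list genes under 0.05 in place of 5. In HET against KO the 8 became 3 without HET replicate 1, 4 without HET replicate 2 and 13 without KO5. In WT against KO none of the 5 genes was under 0.05. Prkdc, the catalytic subunit of the DNA-dependent protein kinase of end joining, had a log2 fold change of -0.65 (SE 0.226), with 59.8 ± 14.3 CPM in controls (SD, n = 4) and 38.1 ± 10.7 CPM in KO (SD, n = 6). Its control values differed by genotype, at 48.7 and 46.8 CPM in WT and 75.6 and 68.4 CPM in HET, and against WT alone its log2 fold change was -0.33 (SE 0.276). Syk, the kinase that transmits the pre-B cell receptor signal, gave -0.41 (SE 0.131), its mean being 885 ± 90.6 CPM over controls and 665 ± 109 CPM over KO. Plcg2, which acts below it, gave -0.42 (SE 0.170), and the kinase Btk -0.23 (SE 0.106). Tcf3, which encodes the E2A proteins, gave -0.27 (SE 0.0993). The remaining end joining genes were near 0 in log2 fold change, among them Xrcc5 at 0.16 (SE 0.120), Xrcc6 at -0.06 (SE 0.110) and Xrcc4 at 0.18 (SE 0.224), except for Lig4 at -0.47 (SE 0.292).

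By group, the KO mean was higher for 8 of 13 end joining genes, 4 of 9 signaling genes, 8 of 20 transcription factors and 8 of 10 surface markers tested in WT plus HET against KO, where 52.8% of all genes had a fitted change above 0. In WT against KO the counts were 7 of 13, 5 of 10, 4 of 20 and 4 of 10, against 51.8% of all genes. Of the 10 surface markers, 2 were higher in HET than in WT, where 48.7% of all genes were. The median log2 fold change of the whole list was 0.05 in WT plus HET against KO, against 0.02 over all genes. In WT against KO it was -0.04, against 0.01 over all genes. Among the factors that switch on the precursor program, Ebf1, Pax5 and Foxo1 gave 0.15 (SE 0.156), 0.13 (SE 0.189) and -0.08 (SE 0.0825) between KO and controls. None of the 3 passed the test (edgeR adjusted p = 0.827, 0.891 and 0.847). Tcf3, in the same group of the list, gave the -0.27 stated above (SE 0.0993, edgeR adjusted p = 0.744). Outside the rule for naming genes, and chosen after their values were seen, Cd93 and Ly6d had lower values in HET than in the other genotypes. Ly6d was at 484 and 584 CPM in WT, 151 and 191 CPM in HET and 250 to 1171 CPM in KO, and Cd93 at 6.53 and 7.78 CPM in WT, 2.55 and 2.21 CPM in HET and 3.79 to 9.31 CPM in KO. Between HET and KO the log2 fold change was 1.61 (SE 0.511, edgeR adjusted p = 0.370) for Ly6d and 1.48 (SE 0.444, edgeR adjusted p = 0.365) for Cd93.

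**Figure D4:**
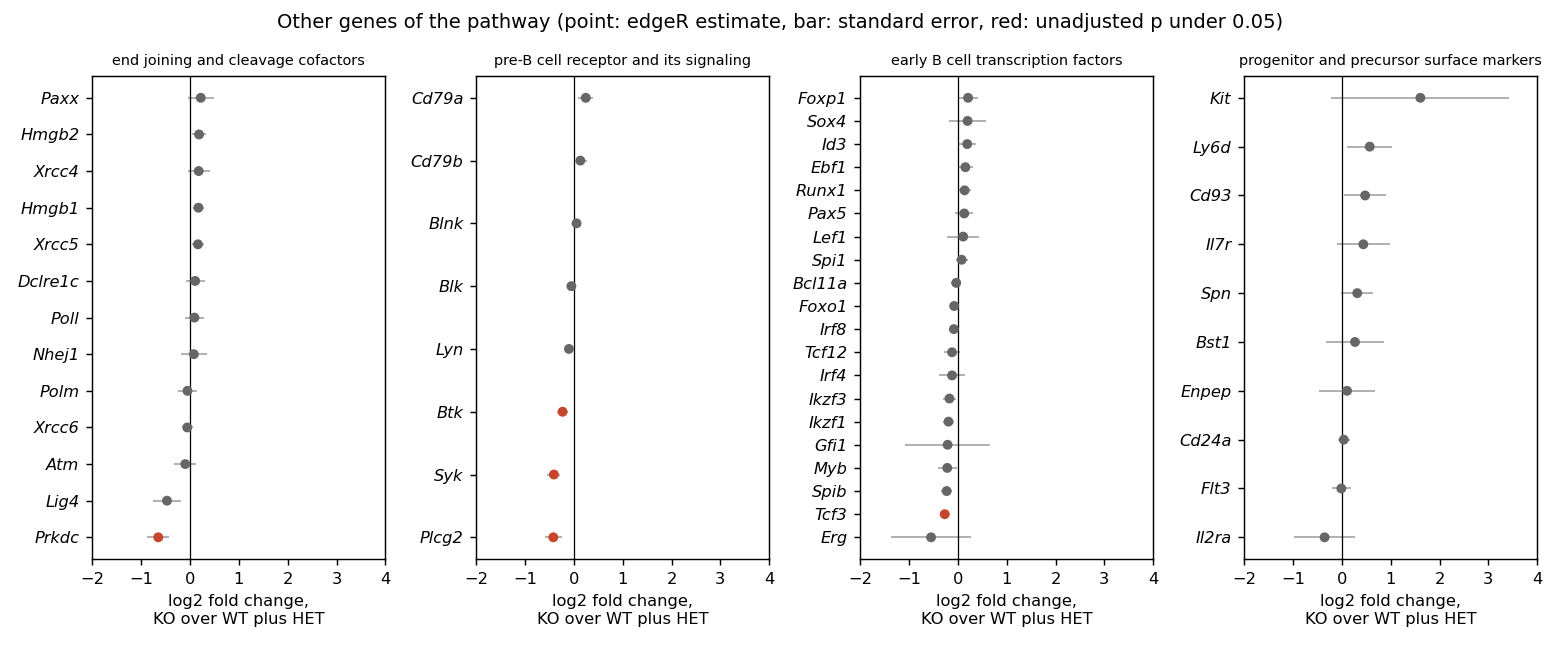
Log2 fold change of KO over WT plus HET for the tested genes of the 4 groups of the pathway list, 1 of them not shown; points are edgeR estimates, bars their standard errors, and red marks an unadjusted p under 0.05. The red points, Prkdc, Syk, Btk, Plcg2 and Tcf3, lie between -0.65 and -0.23, and most other points lie near 0.

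The genes whose values across the 10 libraries were most like those of a member were found by Pearson's r of log2(CPM + 1), as a description over libraries that share genotype, assay and, in part, depth. For Rag2 they were Desi2 (r = 0.88), Tcf4 (0.87) and Gpr19 (0.86), and without KO6 r was 0.94, 0.90 and 0.86. For Arpp21 they were Erich6 (0.98), Serpind1 (0.95) and Itm2a (0.95), of which Itm2a was at 12.3 CPM in KO6 and 0.542 to 3.54 CPM elsewhere, and without KO6 r was 0.93, 0.91 and 0.86. For Rag1 they were Zbtb16 (0.95), Lgals8 (0.94) and Sh3bp1 (0.94), and without KO6 r fell to 0.74, 0.74 and 0.69. Zbtb16, a BTB zinc finger gene of innate-like lymphocytes, had counts only in KO4 and KO6, at 0.438 and 1.65 CPM. For Dntt the closest was Dzip1l (0.95), for Vpreb1 Pigq (0.98), for Igll1 Sgms2 (0.93) and for Vpreb3 Mospd3 (0.93). None of the members was among the 3 genes most like another member.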

How the data were processed

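RNA had been amplified with SMART-Seq v4, which does not preserve strand, tagmented with Nextera and sequenced paired-end on an Illumina HiSeq. The authors quantified transcripts with Salmon 0.9.1 (version from the submitters' processing notes) against Gencode vM17 and deposited, per transcript, estimated counts and TPM, which is normalized for length and depth. 64019 transcripts were summed to 22380 genes, and estimated counts, of which 46.8% were not whole, were rounded. Members were matched by symbol, and 2 list genes by gene identifier.

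Counts were scaled by TMM and fitted with edgeR 4.0.16 (quasi-likelihood test, filterByExpr, Benjamini-Hochberg over all genes tested, threshold 0.1) in R 4.3.3. WT against KO and WT plus HET against KO were each fitted on their own libraries, and HET against KO and WT against HET in 1 fit of all 10 libraries. Log2 fold changes are KO minus control, or HET minus WT. DESeq2 1.42.0, limma 3.58.1 on log2(TPM + 1) and log2(TPM + 0.1), other filters and scalings, a replicate block and leaving out each library were alternatives. The fits of WT against KO and WT plus HET against KO were tested on simulated data, with changes placed in 200 genes of higher level only. Changes at the low level of most members, and the other comparisons, were not simulated. Each library is 1 mouse.

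The 7 members and the gene lists were chosen with earlier results of these data known. Genes named are the 7 members, Vpreb2, the Rag locus, the precursor markers, list genes with an unadjusted p under 0.05 in WT against KO or WT plus HET against KO, the leading gene of each marker list and the 3 genes most correlated with each member; others are given as examples of their group. A group with only 0 was compared through a floor of 3 counts. Some genes of the lists entered the counts and sums but are not reported here. Intervals and floors cover counting error only. Positions are from Gencode vM21 and windows from RefSeq (GRCm38.p6), which had an entry for 7 of 7 members.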

Additional observations from a re-analysis of the deposited data

How the results depend on the processing

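The count of called genes of the pathway list was 0 in all 4 comparisons and in nearly every alternative: other scalings, filters, units and tools left it at 0, and leaving out each library in turn gave 0 to 0 in each comparison. The exceptions were DESeq2 in HET against KO, which called 3 (Cd93, Prkdc and Syk) among 458 of all genes, a fit of WT against HET on those 4 libraries alone, which called 3 (Kit, Ly6d and Prkdc) among 523 of all genes, and the replicate block in WT against HET, which called 1 (Ly6d) among 66 of all genes. The cause was not tested. The replicate numbers are shared between genotypes, and libraries with the same number showed little joint deviation (r from -0.008 to 0.127 over genes). With 2 libraries in WT and in HET, whose deviations from their mean mirror each other, this cannot show whether the numbers pair the mice. The replicate block left the count at 0 in the other comparisons. Replicates 3 to 6 exist only in KO, so the block gives each of KO3 to KO6 a term of its own. Its estimates for KO therefore rest on KO1 and KO2.

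For the members, the Rag2 log2 fold change of KO over controls stayed positive in every fit, from 1.36 to 2.00 without 1 library, from 0.94 to 2.09 over the other alternatives, and at 1.80 with the replicate block. Against WT it was 1.14 to 1.98, 0.89 to 2.03 and 1.39. Rag2 was chosen for its difference between genotypes and its groups did not overlap, so this constant sign is not a test. The log2 fold change of Rag1 over controls fell from 2.02 to 0.75 without KO6. It was 0.14 with the replicate block, where KO6 does not enter the estimate. For Igll1 against WT it ran from 0.10 without WT replicate 1 to 1.73 without WT replicate 2. Dntt and Vpreb1 changed sign in some fits. Depth limits Arpp21, Dntt and Rag1, which rest on few counts in most libraries.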
